A study of Mus musculus with 36 samples.

Results

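The genes described here are 4 sterol exporters, Abca1, Abcg1, Abcg5 and Abcg8. They were taken as the rows of a table of liver transcript levels that carry these symbols, 4 of the 49315 genes listed, and each matched 1 row. The levels came from polyA RNA of 36 livers of male mice aged 11 to 12 weeks, 4 in each of 9 groups. Editing with CRISPR had changed the codon of tryptophan (W) 441 in the liver X receptor alpha (LXRalpha) to phenylalanine (F). The design text gives Nr1h2 as its symbol, although LXRalpha is usually listed as Nr1h3. Controls with tryptophan on both alleles are named W/W, carriers of 1 mutant allele W/F and carriers of 2 mutant alleles F/F. Mice of each genotype were held on normal chow, or on a diet high in fat and cholesterol (Teklad TD.96121) for 4 weeks to promote metabolic dysfunction-associated steatohepatitis (MASH). The mice on that diet received vehicle, or 10 mg/kg of the synthetic LXR agonist T0901317, by gavage each day in the last 2 weeks. No cell type is named to which the mutation was limited, so hepatocytes and macrophages of a mutant liver are both taken to bear it. The chow mice were a separate cohort, for which the labels name no gavage. A diet comparison therefore sets vehicle on the diet against chow, and diet, gavage and cohort cannot be told apart in it.

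Cells cannot break down the sterol ring and must export surplus cholesterol. LXRs are nuclear receptors for oxidised cholesterol that pair with RXR and raise the transcription of exporters when sterols accumulate. ABCG5 and ABCG8 are half-transporters that work only as a pair in the canalicular membrane of hepatocytes, where they secrete cholesterol and plant sterols into bile. ABCG1, which is rich in macrophages, promotes the transfer of cholesterol to mature high-density lipoprotein. ABCA1 is a full transporter, used by hepatocytes and macrophages alike, that loads cholesterol and phospholipid onto lipid-poor apolipoprotein A-I. The comparison of Abcg5 and Abcg8 with Abcg1 therefore sets an exporter pair of hepatocytes beside an exporter typical of macrophages in the same liver.

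On the mouse build GRCm38 the GENCODE M21 annotation places Abca1 (ENSMUSG00000015243) at chr4:53030787-53159895 on the minus strand and Abcg1 (ENSMUSG00000024030) at chr17:31057675-31117988 on the plus strand. Abcg5 (ENSMUSG00000040505) lies at chr17:84658234-84683011 on the minus strand and Abcg8 (ENSMUSG00000024254) at chr17:84676302-84700333 on the plus strand, so the pair overlap head to head. In RefSeq the first bases of Abcg5 and of 1 of the 2 Abcg8 start sites lie 110 bases apart, and the promoter windows there share 209 bases. Annotated exons of Abcg5 and Abcg8 share 82 bases on opposite strands, which are 3.02% of the Abcg5 and 2.19% of the Abcg8 exon bases. Whether reads were counted by strand is not given in the sources used here, so reads from those bases cannot be assigned with certainty.

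The promoter windows of the pair are shown because the 2 genes moved together throughout, and that of Abca1 for comparison. Each holds 250 bases before and 50 bases from the RefSeq start on GRCm38.p6, read 5′ to 3′ on the strand of the gene. Capitals mark matches on either strand to the GATA motif AGATAA, the TATA box TATAAA and the CCAAT box CCAAT.
Abcg5, chr17:84682962-84683261, minus strand: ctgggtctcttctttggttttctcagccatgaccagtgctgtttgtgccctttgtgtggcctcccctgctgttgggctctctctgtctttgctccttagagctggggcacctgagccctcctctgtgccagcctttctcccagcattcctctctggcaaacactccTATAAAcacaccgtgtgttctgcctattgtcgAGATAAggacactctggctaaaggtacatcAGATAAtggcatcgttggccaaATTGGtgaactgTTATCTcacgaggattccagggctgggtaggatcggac
Abcg8, chr17:84682871-84683170, plus strand: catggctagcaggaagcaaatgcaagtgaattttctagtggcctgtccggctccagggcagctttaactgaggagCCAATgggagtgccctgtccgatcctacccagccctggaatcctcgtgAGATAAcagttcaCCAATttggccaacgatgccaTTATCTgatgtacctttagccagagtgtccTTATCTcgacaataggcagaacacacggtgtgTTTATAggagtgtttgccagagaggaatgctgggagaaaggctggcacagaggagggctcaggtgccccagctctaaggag
Abca1, chr4:53159846-53160145, minus strand: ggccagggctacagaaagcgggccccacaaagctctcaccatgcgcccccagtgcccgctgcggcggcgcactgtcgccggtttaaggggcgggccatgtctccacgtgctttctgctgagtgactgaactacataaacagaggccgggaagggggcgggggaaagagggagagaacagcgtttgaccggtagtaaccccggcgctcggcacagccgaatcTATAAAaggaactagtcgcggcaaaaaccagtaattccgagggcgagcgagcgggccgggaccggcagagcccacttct

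The Abcg5 window held 3 matches to AGATAA, beginning 52 and 22 bases before the start and 12 bases after it. They are the same 3 matches as in the overlapping Abcg8 window, where they begin 127, 93 and 63 bases before that start. AGATAA occurred in 11.2% of the 32851 mouse promoter windows of this length in the table. The match to TATAAA lay 84 bases before the Abcg5 start, 31 bases before the Abcg8 start on its opposite strand, and 29 bases before the Abca1 start. TATAAA was found in 13.6% of windows and CCAAT in 37.4%. The exact letters of the nuclear receptor half-site AGGTCA, found in 16.3% of all windows, were in none of the 3. Neither was its exact repeat with a spacer of 4 bases, the LXR type, found in 0.0152%. The closest stretch to that repeat differed from it at 3 letters in the Abca1 window and at 4 in each window of the pair. Apart from that closest stretch, sites that differ from the exact letters were not searched for. The lack of an exact match therefore does not mean the lack of an LXR site. The LRH-1 extended half-site (1.56% of windows) and the SREBP element (0.234%) had no match in them either. These letters are only a description of the windows and do not show where any factor binds. GC content was 52.3% in both windows shown for the pair and 62.7% in that of Abca1, beside a median of 52.7% over all windows. The window at the other Abcg8 start, not shown, had a GC content of 65% and no match to any of these motifs.

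Levels are given as TPM, a transcript share corrected for gene length, so that levels can be compared between genes. Depth, read from the smallest steps between values, lay between 18.1 and 35.8 M reads for each library (median 23.9 M). The gene with the fewest reads, Abcg1, had 70 to 5703 per library. The composition of the libraries differed between groups: the 100 most abundant genes held on average 55.9% of TPM in W/W on vehicle and 42.5% in F/F on vehicle. On vehicle the median of all 16638 tested genes lay above W/W by 0.52 (log2) in W/F and by 0.70 in F/F. Under T0901317 that median moved by -0.49 in W/F and -0.24 in F/F, relative to vehicle. On the diet it moved by 0.39 in W/F and 0.32 in F/F, and on chow F/F lay 0.29 above W/W. Calls were therefore repeated on rescaled values, in which the median ratio over 14786 genes was set equal between libraries. Labels do not say whether samples of a group came from separate litters or days, so p-values cannot set litters or days apart. Those for single genes rest on the spread within groups, pooled over the 9 groups. Those for ratios rest on the samples of the 2 groups compared.

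Abcg5 had the highest mean level of the 4 exporters in 8 of the 9 groups. In F/F on vehicle it stood level with Abca1 at 37.2 TPM, with Abcg1 at 35.5 TPM, all within their SDs. Its group means ran from 37.2 TPM in F/F on vehicle to 380 TPM in W/W on T0901317, a 10.2-fold range, and those of Abcg8 over an 8.90-fold range with the same highest and lowest groups. Abcg1 had the widest range, 29.0-fold, from 1.62 TPM in W/F on chow to 47.0 TPM in F/F on T0901317. Abca1 had the narrowest, 2.06-fold, from 29.0 TPM in W/F on chow to 59.7 TPM in F/F on T0901317. When the groups were ordered by mean, all 8 pairs of neighbours overlapped in their samples for Abca1, 6 of 8 for Abcg5 and for Abcg8, and 4 of 8 for Abcg1. For Abcg1 the breaks in the order fell below F/F on vehicle, below W/F on T0901317, below W/W on vehicle and above W/F on chow.

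**Figure D1:**
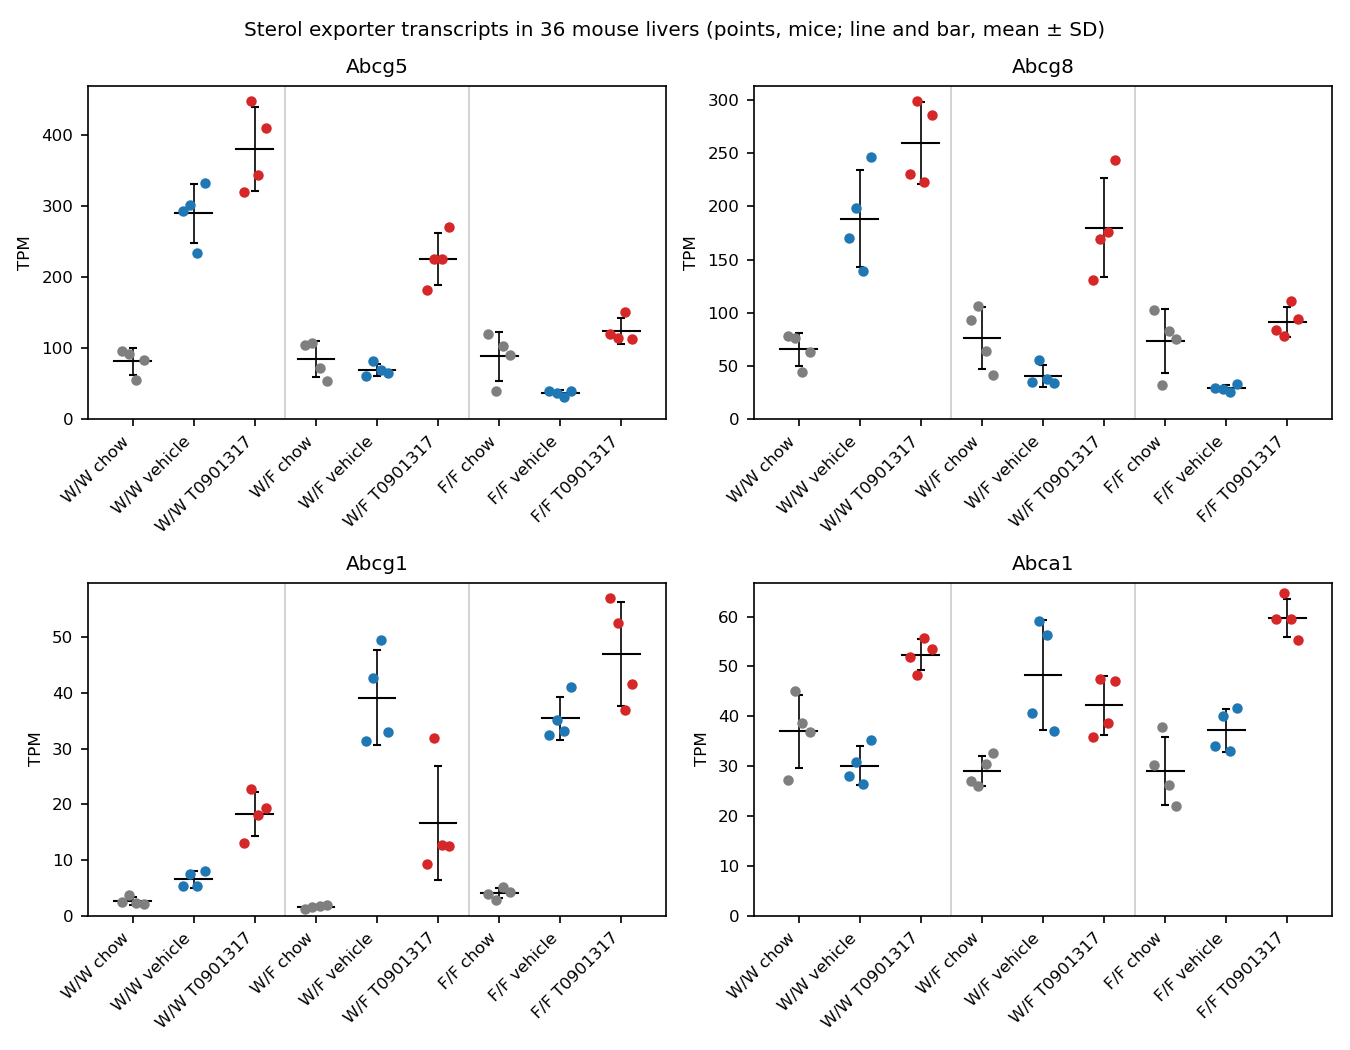
TPM of Abcg5, Abcg8, Abcg1 and Abca1 in each of the 36 livers, by genotype and treatment, with group mean and SD (n = 4). On vehicle Abcg5 and Abcg8 were highest in W/W (means of 290 and 188 TPM), whereas Abcg1 was lowest in W/W (6.51 TPM).

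Calls were made with limma on log2(TPM + 1) at an adjusted p under 0.05 over all tested genes, and each count of exporters called is followed by the share of all tested genes called. T0901317 against vehicle gave 2 of the 4 exporters in W/W (10.8%), 3 in W/F livers (65.9%) and 3 in those of F/F (35.1%). The diet against chow gave 3 in W/W (12.9%), 3 in W/F livers (61.0%) and 4 in those of F/F (55.8%). W/F compared with W/W gave 0 on chow (0.487%), 4 on vehicle (68.5%) and 1 on T0901317 (9.88%). F/F compared with W/W gave 0 on chow (46.7%), 3 on vehicle (76.5%) and 3 on T0901317 (63.2%). The unadjusted limma p was under 0.05 for 1 exporter in the chow comparison of W/F and for 2 in that of F/F. F/F compared with W/F gave 1 on chow (41.4%), 1 on vehicle (21.3%) and 4 on T0901317 (62.6%). Where most genes were called, a count of exporters says little beside that background, and the direction and size of each change are described instead.

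After rescaling, T0901317 gave 2 exporters in W/W (14.0% of genes), 4 in W/F (51.0%) and 4 in F/F (16.1%). The diet gave 3 in W/W (15.9%), 3 in W/F livers (55.0%) and 3 in those of F/F (46.9%). Relative to W/W, W/F then gave 0 on chow (0.609%), 3 on vehicle (53.2%) and 1 on the agonist (13.9%). F/F gave 1 on chow (30.0%), 4 on vehicle (58.9%) and 3 on the agonist (46.8%). Relative to W/F, F/F gave 1 (31.3%), 2 (10.2%) and 3 (40.2%) in that order of treatments. The calls that differed between the scalings were mostly those of Abca1.

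For biliary export, on the diet with vehicle Abcg5 and Abcg8 stood high in W/W and low in both mutant genotypes, while on chow the genotypes overlapped. Abcg5 measured 292, 302, 233 and 332 TPM in W/W on vehicle, in the order of replicates 1 to 4. In W/F on vehicle it measured 60.4, 81.3, 69.2 and 65.4 TPM, and in F/F on vehicle 39.4, 37.4, 31.8 and 40.3 TPM. The 3 genotypes did not overlap, and every F/F liver lay below every W/F liver. Mean TPM was 4.19-fold lower in W/F than in W/W (log2 fold change -2.05, SE 0.23, adjusted p = 8.94e-09). In F/F it was 7.78-fold lower than in W/W (-2.92, SE 0.23, adjusted p = 2.97e-12). After rescaling these differences were larger, at -2.71 and -3.77. Of all genes, 6.83% and 7.13% were called lower in those comparisons. F/F also lay below W/F by 0.87 on the log2 scale (-0.87, SE 0.23, adjusted p = 0.00848), where 2.30% of genes were called lower, and by -1.06 after rescaling.

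Abcg8 followed the same order. It measured 170, 198, 139 and 246 TPM in W/W on vehicle and 34.6, 55.7, 38.1 and 34.5 TPM in W/F on vehicle. In F/F on vehicle it measured 29.7, 28.0, 25.8 and 33.3 TPM. The W/W livers lay above all others. Relative to W/W, mean TPM was 4.63-fold lower in W/F (log2 fold change -2.18, SE 0.27, adjusted p = 4.73e-08) and 6.46-fold lower in F/F (-2.62, SE 0.27, adjusted p = 6.51e-10). The rescaled values were -2.83 and -3.47. Between F/F and W/F the difference of -0.45 had a 95% interval of -1.0 to 0.11 and an adjusted p of 0.257, although the samples did not overlap.

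On chow no genotype difference of the pair passed the test. Abcg5 measured 95.7, 92.1, 54.5 and 83.8 TPM in W/W, 104, 107, 72.7 and 53.9 TPM in W/F, and 120, 39.7, 103 and 90.6 TPM in F/F. Abcg8 measured 78.6, 76.3, 43.9 and 63.4 TPM in W/W, 93.1, 106, 63.8 and 41.9 TPM in W/F, and 103, 32.1, 82.8 and 75.4 TPM in F/F. The spread within a group was wide, with a coefficient of variation of 39.2% for Abcg5 and 40.7% for Abcg8 in F/F, and F/F replicate 2 was the lowest chow liver for both. For Abcg5 the F/F minus W/W difference was 0.04 with a 95% interval of -0.44 to 0.52, or -0.34 after rescaling, and for Abcg8 it was 0.08 with an interval of -0.48 to 0.64, or -0.30 after rescaling. None of these passed, and with this spread differences within those intervals remain possible.

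Between chow and the diet the pair moved in opposite directions in W/W and F/F. In W/W it came with a rise of Abcg5 from a mean of 81.5 to 290 TPM (log2 fold change 1.84, SE 0.23, adjusted p = 3.69e-06) and of Abcg8 from 65.6 to 188 TPM (1.51, SE 0.27, adjusted p = 0.000465), and the samples did not overlap. In that comparison 2.59% of tested genes were called higher. In F/F both fell, Abcg5 from 88.4 to 37.2 TPM (-1.12, SE 0.23, adjusted p = 0.000168) and Abcg8 from 73.3 to 29.2 TPM (-1.19, SE 0.27, adjusted p = 0.000488). In these comparisons of F/F 9.27% of genes were called lower, and chow replicate 2 lay within the vehicle range for both genes. The rescaled diet changes were 1.97 and 1.64 in W/W and -1.46 and -1.52 in F/F, for Abcg5 and Abcg8 in turn. In W/F Abcg8 fell by 0.83 on the log2 scale (adjusted p = 0.00964, 8.53% of genes called lower), a call lost when W/F chow replicate 2 was left out (-0.64), and by 1.32 after rescaling (-1.32), whereas Abcg5 differed by -0.24 (adjusted p = 0.390) and by -0.74 after rescaling (adjusted p = 0.00563). For Abcg5 the diet response differed from that of W/W by -2.08 in W/F and by -2.96 in F/F (SE 0.33 for both, adjusted p = 6.86e-06 and 1.48e-07), or by -2.70 and -3.43 after rescaling. All 4 exporters were called in both of these differences of response, where 54.6% and 46.0% of genes were called, 5.13% and 4.54% of all genes as lower and 49.5% and 41.5% as higher. After rescaling 3 of the 4 were called in each, all but Abca1, with 40.3% and 26.7% of genes.

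T0901317 raised Abcg5 and Abcg8 in both mutant genotypes. Abcg5 measured 181, 226, 226 and 270 TPM in W/F on the agonist and 119, 114, 151 and 112 TPM in F/F on it. All of these lay above the vehicle livers of their genotype. Mean TPM was 3.27-fold higher in W/F (log2 fold change 1.69, SE 0.23, adjusted p = 3.58e-07) and 3.34-fold higher in F/F (1.71, SE 0.23, adjusted p = 5.1e-06), where 6.59% and 3.95% of genes were called higher. Abcg8 measured 131, 169, 176 and 244 TPM in W/F and 83.8, 78.4, 111 and 93.9 TPM in F/F. Its mean was 4.42-fold higher in W/F (2.11, SE 0.27, adjusted p = 1.18e-07) and 3.14-fold higher in F/F (1.61, SE 0.27, adjusted p = 8.54e-05). After rescaling the Abcg5 rises were 2.29 and 1.96 and those of Abcg8 were 2.71 and 1.86.

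In W/W the pair did not pass the test for T0901317. Abcg5 measured 319, 448, 344 and 409 TPM on the agonist, and its lowest value lay below the highest vehicle liver. The difference of 0.39 for Abcg5 had a 95% interval of -0.09 to 0.87 (adjusted p = 0.347) and that of 0.48 for Abcg8 an interval of -0.08 to 1.04 (adjusted p = 0.310). Abcg8 there measured 231, 299, 223 and 286 TPM, again overlapping vehicle. For Abcg5 the agonist response exceeded that of W/W by 1.30 in W/F and 1.32 in F/F (SE 0.33 for both, adjusted p = 0.00132 and 0.00393), or by 1.97 and 1.64 after rescaling. For Abcg8 the excess was 1.63 and 1.13 (SE 0.39, adjusted p = 0.000657 and 0.0270), and the second value left the threshold without F/F agonist replicate 3, W/W agonist replicate 3 or W/W vehicle replicate 4 (0.99 to 1.06). After rescaling the Abcg8 values were 2.30 and 1.45. In W/F all 4 exporters were called in this difference of response, with 58.5% of genes called, 5.27% higher and 53.2% lower. In F/F 3 were called, with 30.4% of genes, 3.29% higher and 27.2% lower. After rescaling the counts were 3 (44.1% of genes) and 2 (17.6%).

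On T0901317 F/F livers lay under W/W for both genes. Abcg5 in F/F on the agonist was 3.06-fold below W/W on it by mean TPM (log2 fold change -1.60, SE 0.23, adjusted p = 1.1e-06), and Abcg8 was 2.83-fold below (-1.49, SE 0.27, adjusted p = 2.78e-05), with 6.96% of genes called lower. In W/F the Abcg5 difference of -0.75 reached an adjusted p of 0.0371, with 6.23% of genes called lower, and left the threshold in 6 of the 8 fits without 1 library, those of W/F replicates 1, 2 and 3 and of W/W replicates 2, 3 and 4 (values -0.65 to -0.79). The Abcg8 difference of -0.55 had an adjusted p of 0.239. F/F lay below W/F on the agonist for Abcg5 (-0.85, adjusted p = 0.00244) and Abcg8 (-0.94, adjusted p = 0.00377), where 4.08% of genes were called lower. After rescaling F/F differed from W/W on the agonist by -2.13 and -2.02, and from W/F by -1.39 and -1.48, for Abcg5 and Abcg8 in turn.

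The 2 subunits kept a narrow ratio throughout. Abcg5 divided by Abcg8 within a library ran from 1.00 to 1.90 over the 36 livers, while the group means of each gene alone spanned 8.90-fold or more. The group means were lowest in W/F on chow, 1.14 ± 0.12 (SD, n = 4), and highest in W/F on vehicle, 1.73 ± 0.19. Of the 15 comparisons of 2 groups, 6 did not overlap and had an exact permutation p of 0.0286, the smallest that 70 arrangements can give. After adjustment over the 15, 0 passed (adjusted p = 0.0714 for these 6). A comparison at the smallest p can pass only if enough of the 15 reach it. The lack of a call therefore does not show that the ratio was equal between groups. The correlation of the 2 genes over the 36 libraries was 0.98, given as a description because the libraries share groups and overlapping exons.

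**Figure D2:**
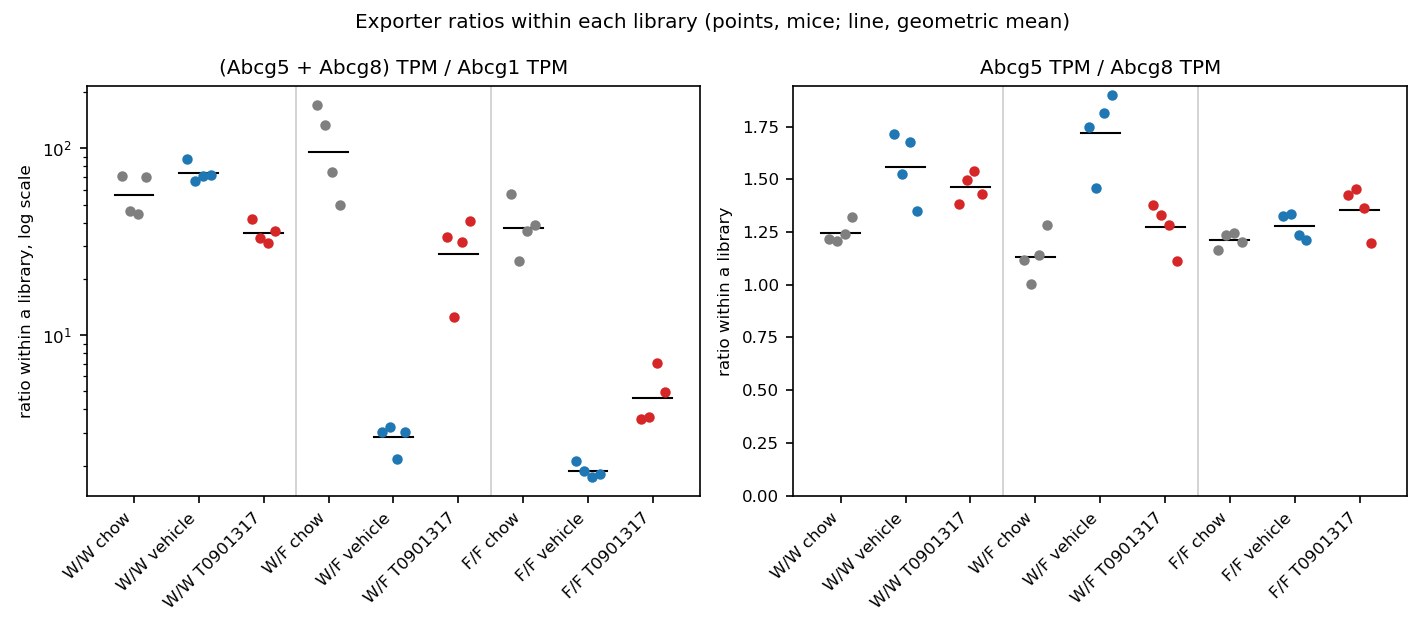
Ratio of summed Abcg5 and Abcg8 TPM to Abcg1 TPM (left, log axis) and of Abcg5 to Abcg8 TPM (right, linear axis) in each of the 36 livers, with the geometric mean of each group. The left ratio spanned 1.73 to 171, with the vehicle livers of W/F and F/F lowest, and the right ratio spanned 1.00 to 1.90.

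Abcg1, the exporter typical of macrophages, stood the other way between genotypes on the diet with vehicle, low in W/W and high in both mutants. In W/W it rose on the diet as the pair did. It was low in all chow livers and rose on the diet, less in W/W than in W/F or F/F. On chow it measured 2.46, 3.63, 2.22 and 2.09 TPM in W/W, 1.15, 1.59, 1.82 and 1.92 TPM in W/F, and 3.94, 2.89, 5.18 and 4.29 TPM in F/F. On vehicle it measured 5.28, 7.44, 5.25 and 8.07 TPM in W/W, 31.3, 42.7, 49.5 and 32.9 TPM in W/F, and 32.5, 35.1, 33.2 and 41.0 TPM in F/F. Diet and chow livers did not overlap in any genotype, and every mutant liver on vehicle lay above every W/W liver on vehicle. On chow every W/F liver lay below every W/W liver, with a difference of -0.45 that did not pass (adjusted p = 0.930).

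Mean Abcg1 TPM was 2.5-fold higher on the diet in W/W (log2 fold change 1.06, SE 0.24, adjusted p = 0.00296), 24.1-fold higher in W/F (3.92, adjusted p = 3.2e-14) and 8.70-fold higher in F/F (2.86, adjusted p = 7.1e-11). The fitted values understate the change of so low a gene, because 1 TPM was added before taking logs. The share of genes called higher on the diet was 52.4% in W/F and 46.5% in F/F. The diet response exceeded that of W/W by 2.86 in W/F (SE 0.33, adjusted p = 5.55e-08) and by 1.80 in F/F (SE 0.33, adjusted p = 0.000103), or by 2.29 and 1.29 after rescaling. On vehicle Abcg1 was 6.01-fold higher in W/F than in W/W (2.41, SE 0.24, adjusted p = 4.41e-10) and 5.45-fold higher in F/F (2.29, SE 0.24, adjusted p = 4.89e-10). In these comparisons 61.6% and 69.3% of tested genes were called higher, beside median genes at 0.52 and 0.70, and after rescaling the Abcg1 differences were 1.80 and 1.49.

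T0901317 changed Abcg1 in opposite directions in W/W and W/F. On the agonist it measured 13.1, 22.7, 18.1 and 19.3 TPM in W/W, all above vehicle, and the mean was 2.81-fold higher (log2 fold change 1.36, SE 0.24, adjusted p = 0.000146), where 7.87% of genes were called higher. In W/F it measured 9.27, 31.8, 12.8 and 12.5 TPM, and 3 of the 4 livers lay below every vehicle liver. The mean was 2.36-fold lower (-1.32, SE 0.24, adjusted p = 1.59e-05), in a comparison where 59.3% of genes were called lower, and it was -0.74 after rescaling (adjusted p = 0.00223). In F/F it measured 57.0, 52.6, 36.9 and 41.5 TPM, and the difference of 0.38 did not pass (adjusted p = 0.204), while the rescaled value of 0.64 did (adjusted p = 0.0234). The response in W/F was below that in W/W by 2.67 on the log2 scale (-2.67, SE 0.33, adjusted p = 1.34e-07), and by 2.06 after rescaling (-2.06). For F/F the difference from W/W was -0.97 (SE 0.33, adjusted p = 0.0271), or -0.68 after rescaling (adjusted p = 0.0908), and it left the threshold in 6 of 16 fits without 1 library, those of F/F agonist replicates 3 and 4, F/F vehicle replicate 4, W/W agonist replicate 2 and W/W vehicle replicates 1 and 3 (-0.87 to -0.92).

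On T0901317 the level in F/F, a mean of 47.0 TPM, was 2.57-fold above W/W (log2 fold change 1.32, SE 0.24, adjusted p = 1.96e-05) and 2.83-fold above W/F (1.58, SE 0.24, adjusted p = 2.16e-06), where 56.3% and 58.5% of genes were called higher. The rescaled values were 0.81 and 1.06. W/F replicate 2 stood apart on the agonist at 31.8 TPM. With it, W/F and W/W differed by -0.26 (adjusted p = 0.587), and without it by -0.61, which passed the test. On chow Abcg1 was 2.51-fold higher in F/F than in W/F (0.94, SE 0.24, adjusted p = 0.00204), where 37.9% of genes were called higher. It was the single exporter called among chow genotypes as deposited. Against W/W on chow the F/F difference of 0.49 did not pass (adjusted p = 0.0852), and it did pass without F/F replicate 2 (0.62) or W/W replicate 2 (0.62).

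Abca1, which serves hepatocytes and macrophages, had the narrowest range of group means of the 4. It measured 27.9, 30.8, 26.3 and 35.3 TPM in W/W on vehicle, and 51.9, 48.3, 55.8 and 53.4 TPM in W/W on T0901317. The 2 groups did not overlap, and the mean was 1.74-fold higher on the agonist (log2 fold change 0.78, SE 0.15, adjusted p = 0.000519). In F/F it measured 34.1, 40.0, 33.0 and 41.7 TPM on vehicle and 59.5, 64.7, 59.6 and 55.2 TPM on the agonist, again without overlap, and the mean was 1.61-fold higher (0.67, SE 0.15, adjusted p = 0.00140). In W/F it measured 40.6, 59.0, 56.2 and 37.1 TPM on vehicle and 35.8, 47.6, 38.6 and 47.0 TPM on the agonist. These overlapped, with a difference of -0.17 (adjusted p = 0.329) that turned to 0.42 after rescaling (adjusted p = 0.0194). The direction in W/F thus depends on the scaling.

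On chow Abca1 measured 27.3, 45.1, 38.7 and 36.9 TPM in W/W, 27, 26.1, 30.4 and 32.7 TPM in W/F, and 30.2, 38.0, 26.1 and 22.0 TPM in F/F. All 3 genotypes overlapped. F/F differed from W/W by -0.34 (adjusted p = 0.0621), which passed after rescaling (-0.72) and without F/F replicate 2 or W/W replicate 1 (-0.48 for both). The diet came with a rise in W/F (log2 fold change 0.69, SE 0.15, adjusted p = 0.000218) and a small one in F/F (0.37, SE 0.15, adjusted p = 0.0397), and neither passed after rescaling (0.20 and 0.02). The call in F/F was also lost without F/F chow replicate 3 or 4, or without F/F vehicle replicate 2 or 4 (0.25 to 0.33). In W/W the difference was -0.28 (adjusted p = 0.257). On vehicle W/F lay above W/W (0.64, SE 0.15, adjusted p = 0.000395) as deposited, and at -0.0039 after rescaling. F/F against W/W on vehicle was 0.30 as deposited (adjusted p = 0.0724), passed at 0.38 without W/W replicate 4, and was -0.54 after rescaling (adjusted p = 0.00265). With a median gene that itself moved by 0.52 and 0.70 in these comparisons, the direction of Abca1 between mutant and control on vehicle depends on the scaling. On T0901317 F/F lay 1.41-fold above W/F by mean TPM (0.50, adjusted p = 0.00526), and at -0.03 after rescaling.

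**Figure D3:**
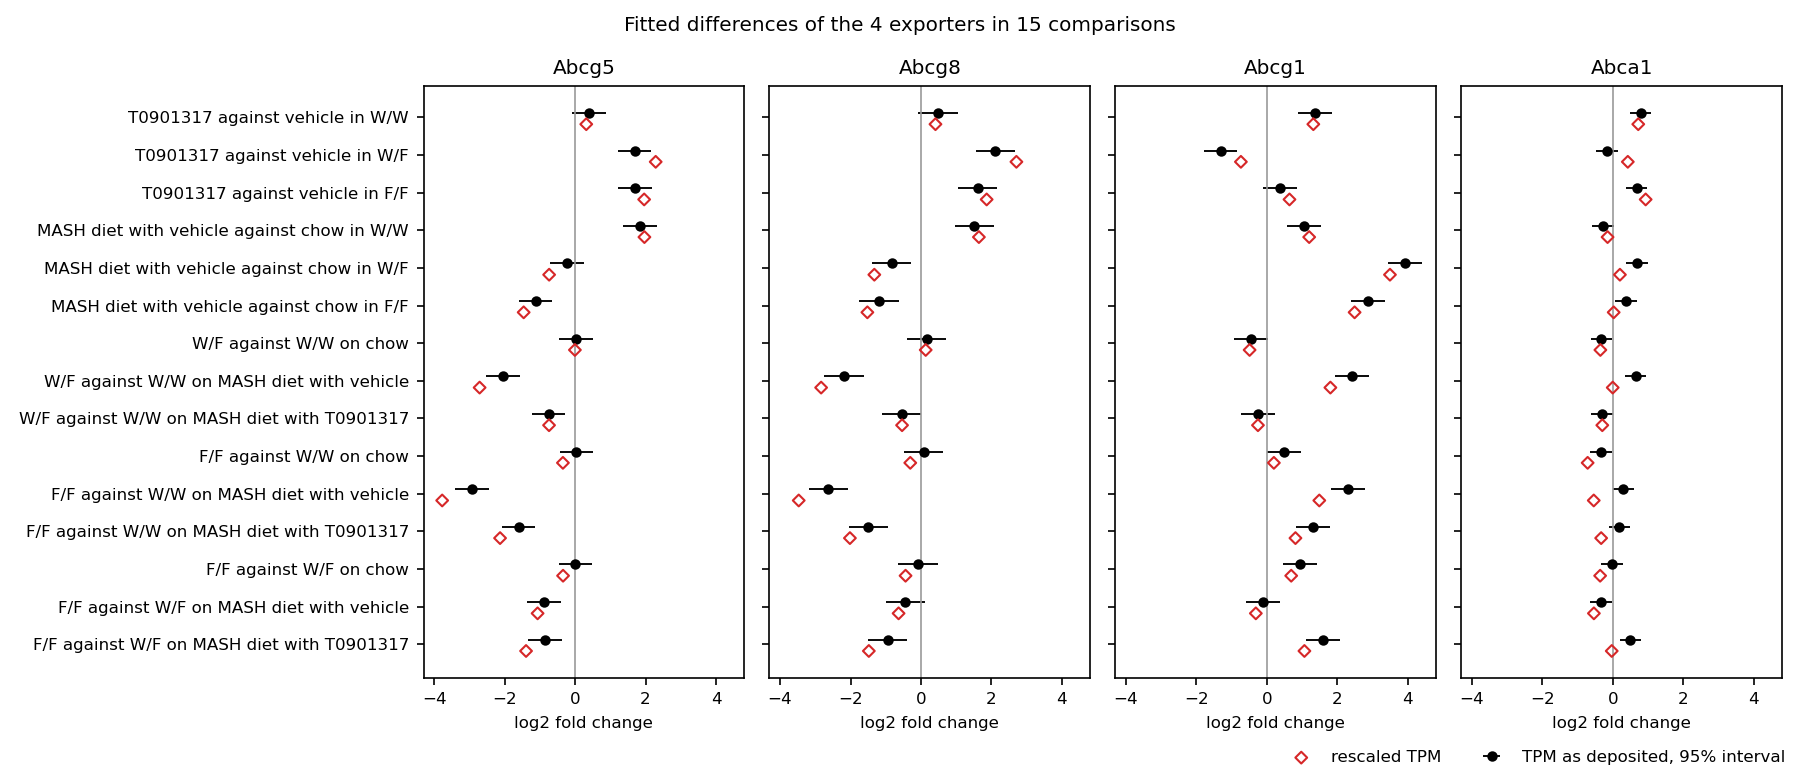
Fitted log2 fold change of each exporter in 15 comparisons of 2 groups, with its 95% interval on TPM as deposited (filled) and the value after rescaling (open diamonds). Abcg5 and Abcg8 were below 0 and Abcg1 above 0 for both mutant genotypes relative to W/W on vehicle under both scalings, while Abca1 crossed 0 with the scaling.

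A ratio of genes within 1 library does not depend on how libraries are scaled, and it sets the hepatocyte pair against Abcg1 directly. The summed TPM of Abcg5 and Abcg8 divided by that of Abcg1 was 74.3 ± 9.10 (SD, n = 4) in W/W on vehicle, 2.86 ± 0.470 in W/F on vehicle and 1.88 ± 0.174 in F/F on vehicle. In F/F on vehicle the ratio was 2.13 in the highest liver and 1.73 in the lowest, and in W/W on vehicle the lowest liver stood at 67.1. The difference between F/F and W/W was 39.5-fold and that between W/F and W/W 26.2-fold (log2 differences of -5.30 and -4.71). Each had an exact two-sided permutation p of 0.0286, the smallest that 4 against 4 allows, and an adjusted p of 0.0429 over the 15 comparisons.

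On chow the ratio was 57.9 ± 14.5 in W/W, 107 ± 55.2 in W/F livers and 39.0 ± 13.2 in those of F/F, and genotypes overlapped. On the diet it fell 34.0-fold in W/F and 19.96-fold in F/F (exact permutation, adjusted p = 0.0429 for both), while in W/W it differed by 1.31-fold with overlapping samples (adjusted p = 0.153). T0901317 raised it 9.58-fold in W/F, to 29.6 ± 12.2, and 2.47-fold in F/F, to 4.82 ± 1.64, and lowered it 2.09-fold in W/W, to 35.6 ± 4.70 (exact permutation, adjusted p = 0.0429 for each). On the agonist W/F and W/W overlapped (adjusted p = 0.514), and F/F stayed 7.63-fold below W/W and 5.86-fold below W/F (adjusted p = 0.0429 for both by exact permutation). W/F replicate 2 on the agonist had the lowest ratio of its group, 12.4, against 31.4 to 41.0 in the other 3. In all, 10 of the 15 comparisons passed.

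Abca1 set against Abcg1 gave a ratio of 14.6 ± 3.38 in W/W on chow, 18.4 ± 3.42 in W/F on chow and 7.74 ± 3.80 in F/F on chow. On vehicle it was 4.71 ± 0.539 in W/W, 1.23 ± 0.124 in W/F livers and 1.05 ± 0.0639 in those of F/F. All diet comparisons of this ratio were without overlap, 3.06-fold lower in W/W, 14.8-fold in W/F and 6.81-fold in F/F (exact permutation, adjusted p = 0.0476 for each). Abca1 and Abcg1 thus did not keep a fixed proportion in whole liver, and 9 of the 15 comparisons of their ratio passed. Each of the 9 again stood at the smallest permutation p that 4 against 4 allows. Because hepatocytes use ABCA1 too, this ratio is not one of macrophage transcripts alone.

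Markers of several cell types moved with these groups. In bulk tissue, more cells of a type and more RNA per cell cannot be told apart. All 12 hepatocyte markers had a mean of at least 1 TPM in each group, with a summed level of 72459 to 97733 TPM in W/W on vehicle and 42141 to 47845 TPM in F/F on vehicle, where 9 of the 12 were called lower than in W/W and 1 higher. The 14 macrophage and Kupffer cell markers summed to 367 to 614 TPM in W/W on vehicle, 4292 to 5382 TPM in W/F and 4739 to 5940 TPM in F/F. On T0901317 the sums were 402 to 754, 312 to 1944 and 2079 to 3406 TPM. Of these 14 markers 9 were called higher and 3 lower in W/F than in W/W on vehicle, with Timd4 the lowest, and in F/F 9 were higher and 5 lower, with Clec4f the lowest. Timd4 and Clec4f mark resident Kupffer cells, and the counts were the same after rescaling. No marker of either list was at 0 in all libraries of a group. Of the 8 markers of lipid-associated macrophages, all were called higher in F/F than in W/W on vehicle and all were called lower on T0901317 in W/F, under both scalings. The 6 cholangiocyte markers summed to 54.0 to 61.5 TPM in W/W on vehicle, 1163 to 1591 in W/F and 2909 to 3556 in F/F. All 6 were called higher in both mutants. A mean of at least 1 TPM was reached by 4 of these 6 in W/W on vehicle, 5 in W/F and 6 in F/F. A summed level can be carried by 1 abundant gene, and lists of different cell types may share genes. The sum is therefore not taken as a measure of bile duct cells alone. The 8 stellate cell and myofibroblast markers summed to 21.0 to 47.4 TPM in W/W, 313 to 487 TPM in W/F and 590 to 788 TPM in F/F, with all 8 called higher in both as deposited. The 6 neutrophil markers summed to 3.48 to 10.3 TPM in W/W, 83.9 to 149.97 TPM in W/F and 135 to 370 TPM in F/F. The 8 endothelial markers summed to 101 to 112 TPM in W/W, 74.5 to 110 TPM in W/F and 106 to 156 TPM in F/F. The 8 lymphocyte markers summed to 6.61 to 15.8, 10.5 to 18.9 and 12.2 to 21.4 TPM in the same order of genotypes. The part of these cells in the exporter changes was not tested.

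Abcg1 was also set against the macrophage markers of its own library, by their mean and by single genes. The mean joins markers that rose with others that fell in the mutants on vehicle, so it moves with both. On the log2 scale its difference to that mean on chow was -2.12 ± 0.30 in W/W, -2.21 ± 0.27 in W/F livers and -2.11 ± 0.12 in those of F/F (SD, n = 4). On vehicle it stood at -1.42 ± 0.24, -0.94 ± 0.35 and -0.28 ± 0.12, and on T0901317 at -0.33 ± 0.11, -0.57 ± 0.41 and 0.0038 ± 0.25. In W/W the vehicle and agonist values did not overlap, and 1 of the 14 macrophage markers, Mpeg1, was called in that comparison. In W/F, where Abcg1 fell on the agonist as deposited, 9 of the 14 markers were called lower and 3 higher, and the difference to the markers overlapped between vehicle and agonist. Against Adgre1 alone, which encodes the macrophage surface protein F4/80, Abcg1 stood on vehicle at 0.09 in W/W, 0.32 in W/F livers and -0.13 in those of F/F, with no rise towards F/F. Against Csf1r alone, the receptor for the macrophage growth factor, Abcg1 stood at -1.84, -1.96 and -2.73 on chow and at -1.16, -1.39 and -1.33 on vehicle, so the order of the genotypes depends on the markers chosen. Against Csf1r the agonist groups stood at -0.18, -0.30 and -0.30, and every agonist liver lay above every vehicle liver of its genotype. Against Adgre1 they stood at 0.95, 0.86 and 1.24, with that separation in W/W and F/F but with overlap in W/F. Against the mean of the 14 markers, vehicle and agonist livers overlapped in F/F as well as in W/F.

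Abcg5 was set against the mean of the hepatocyte markers in the same way. It stood at -2.96 ± 0.27 in W/W on vehicle, -4.52 ± 0.10 in W/F and -4.95 ± 0.13 in F/F, and the genotypes did not overlap. On chow the values were -4.91 ± 0.29, -4.88 ± 0.38 and -4.76 ± 0.70, and on T0901317 -2.31 ± 0.24, -3.20 ± 0.20 and -3.70 ± 0.05. The Abcg5 differences between genotypes on the diet were thus also present relative to these hepatocyte markers of the same library. The fall of Abcg5 from chow to vehicle in F/F was not clear on this measure. There F/F livers ran from -5.79 to -4.24 on chow and from -5.08 to -4.78 on vehicle. In W/F the mean was higher on vehicle than on chow, with overlapping samples. Abcg8 gave -3.60 ± 0.37, -5.29 ± 0.19 and -5.29 ± 0.14 on vehicle, beside -5.22 ± 0.31, -5.06 ± 0.52 and -5.03 ± 0.72 on chow.

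**Figure D4:**
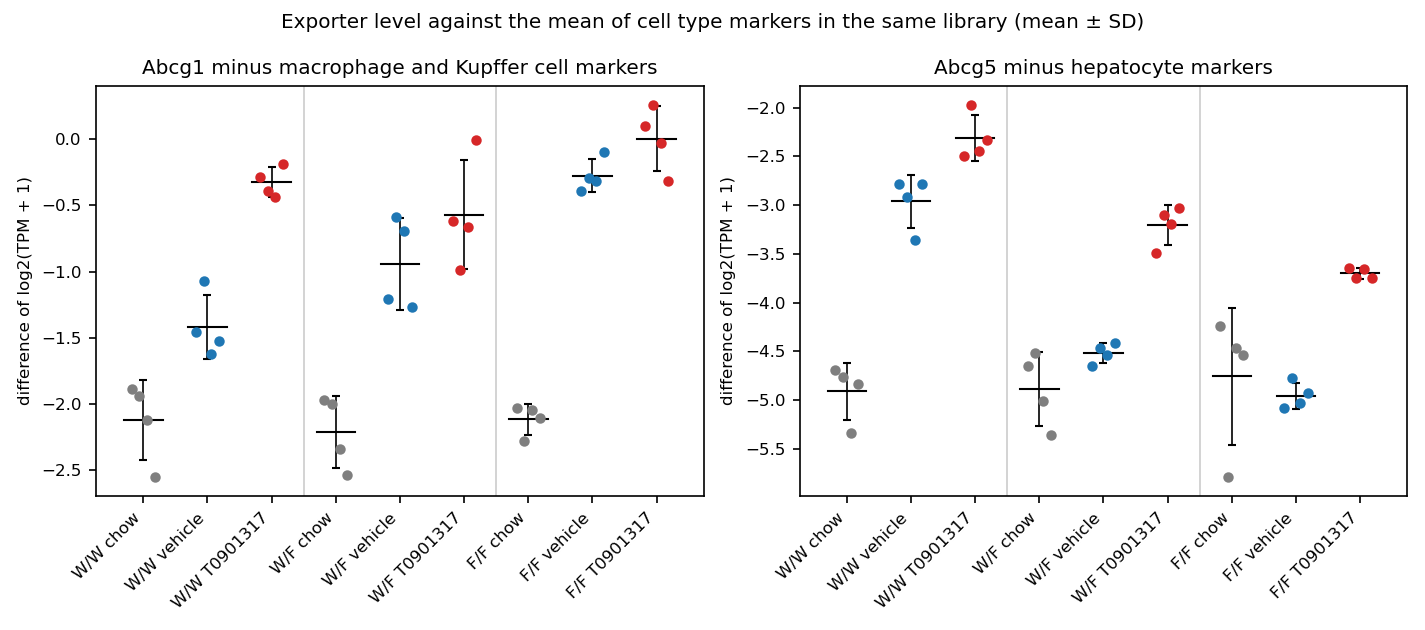
Abcg1 minus the mean of 14 macrophage and Kupffer cell markers (left) and Abcg5 minus the mean of 12 hepatocyte markers (right), in log2(TPM + 1) within each library, with group mean and SD (n = 4). Chow groups of all genotypes lie near -2.1 to -2.2 on the left, and on the right W/W on the diet lies above both mutants.

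The genes most like each exporter over the 36 libraries were found by Pearson correlation of log2(TPM + 1) among 11194 genes. These values describe libraries that share groups and composition. For Abcg5 they included Abcg8 (r = 0.98), Aldh2 (0.92) and Slc27a2 (0.90), and for Abcg8 they included Decr2 (0.92) beside Abcg5, Aldh2 and Slc27a2. Aldh2 encodes an abundant liver enzyme of aldehyde metabolism, and Slc27a2 a fatty acid transporter with acyl-CoA synthetase activity. For Abcg1 they were Mylip (0.97), Pdlim1, AB124611, Pla2g15 and Alpl (0.95 to 0.96). Mylip, the E3 ligase that marks the LDL receptor for degradation, is itself an LXR target, and Pla2g15 is a lysosomal phospholipase. For Abca1 the highest were Il13ra1 (0.83) and Adarb1 (0.78), and 2 of its 5 genes dropped far down the order after rescaling, Akr1b7 to rank 1081 and Tmem268 to rank 543. Among the exporters themselves, Abcg1 and Abcg5 had r = -0.01, and Abca1 and Abcg1 had r = 0.72, which was 0.36 after rescaling. Abca1 had r = 0.17 with Abcg5 and 0.12 with Abcg8 as deposited, and 0.62 and 0.59 after rescaling.

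As deposited, Mylip had the highest correlation with Abcg1, and after rescaling it was at rank 2 (r = 0.95). Its mean was 8.79 ± 0.629 TPM in W/W on vehicle, 21.4 ± 3.33 in W/F and 23.8 ± 5.02 in F/F (SD, n = 4). On T0901317 it fell in W/F as deposited (log2 fold change -0.61, adjusted p = 0.00301 by limma) but stood at -0.04 after rescaling, and the values of 0.46 in W/W and 0.41 in F/F did not pass as deposited (adjusted p = 0.0943 and 0.0709).

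The steps of cholesterol transport around the exporters were covered by a list of 23 genes for reverse cholesterol transport and biliary lipid secretion, 22 of which passed the filter (Npc1l1, a sterol uptake transporter, did not). In F/F against W/W on vehicle 7 were called higher and 10 lower, with a median of -0.24 beside 0.70 for all genes, of which 69.3% were called higher and 7.13% lower. After rescaling 3 were higher and 17 lower, where 58.9% of genes were called. The largest rise was in Soat1, which esterifies cholesterol for storage (log2 fold change 3.14, adjusted p = 2.47e-13), and the largest fall in Cyp8b1, the sterol 12-alpha-hydroxylase of cholic acid synthesis (-3.92, adjusted p = 2.02e-12). Apoa1, the acceptor protein for ABCA1, was lower by 0.53 (-0.53, adjusted p = 9.62e-05). Apoa2 and Apoe, further apolipoproteins of high-density particles, were also lower, at -1.69 and -0.65. All of these kept their direction after rescaling.

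T0901317 gave 6 higher and 2 lower of the 22 in W/W, 9 and 10 in W/F, and 8 and 3 in F/F. Of all genes, 10.8% were called in W/W, 65.9% in W/F, where 59.3% were lower, and 35.1% in F/F. In W/W the largest rise was in Pltp, the phospholipid transfer protein (3.32, adjusted p = 1.39e-07), and the largest fall in Lcat, which esterifies cholesterol on lipoproteins (-0.60, adjusted p = 5.24e-06). In W/F Cyp8b1 rose most (3.44, adjusted p = 2.22e-10) and Soat1 fell most (-2.54, adjusted p = 1.56e-10), and after rescaling 12 were higher and 4 lower. In F/F Cyp7a1, the rate-limiting enzyme of bile acid synthesis, rose most (2.38, adjusted p = 0.000267) and Soat1 fell most (-1.06, adjusted p = 0.000787), and after rescaling 13 were higher and 2 lower. Pltp moved as Abcg1 did in W/W and W/F, up in the first and down in the second (-1.74, adjusted p = 0.000137), and rose in F/F (1.06, adjusted p = 0.0265).

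Among 22 other LXR target genes, of which Pltp and Apoe are also in the list above, changes ran in both directions. In F/F against W/W on vehicle 6 of the 22 were called higher and 12 lower (median -0.61), where 69.3% of all genes were called higher and 7.13% lower. The lowest was Scd1, a desaturase (-9.09, adjusted p = 1.61e-20), and Srebf1, the regulator of fatty acid synthesis, stood at -3.89 (adjusted p = 1.78e-15). The highest was Arl4c, a small GTPase linked to cholesterol efflux (3.08, adjusted p = 2.25e-12), and Lpl, a lipoprotein lipase made by macrophages, stood at 2.36 (adjusted p = 3.25e-08). Abcg5 and Abcg8 had the sign of Scd1 and Srebf1, and Abcg1 that of Arl4c and Lpl. These are single genes of the 22, and Lpl was named after its value was seen. With 69.3% of all genes called higher, the sign that Abcg1 shares with them says little. After rescaling 5 were higher and 16 lower. For T0901317 in W/W 13 of the 22 were called higher (median 0.91), where 7.87% of all genes were, led by Pnpla3 (4.53, adjusted p = 3.53e-11). In W/F 8 were higher and 7 lower, from Thrsp (4.95, adjusted p = 2.1e-07) to Lpl (-3.01, adjusted p = 1.42e-09), where 6.59% of all genes were called higher and 59.3% lower, and after rescaling 12 were higher and 4 lower. In F/F 12 were higher and 2 lower, from Cd5l, an apoptosis inhibitor of macrophages (5.49, adjusted p = 9.51e-12), to Arl4c (-0.65, adjusted p = 0.0370), where 35.1% of all genes were called and 3.95% were higher. After rescaling 14 were higher and 1 lower, Smpdl3a, and Arl4c at -0.40 no longer passed.

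**Figure D5:**
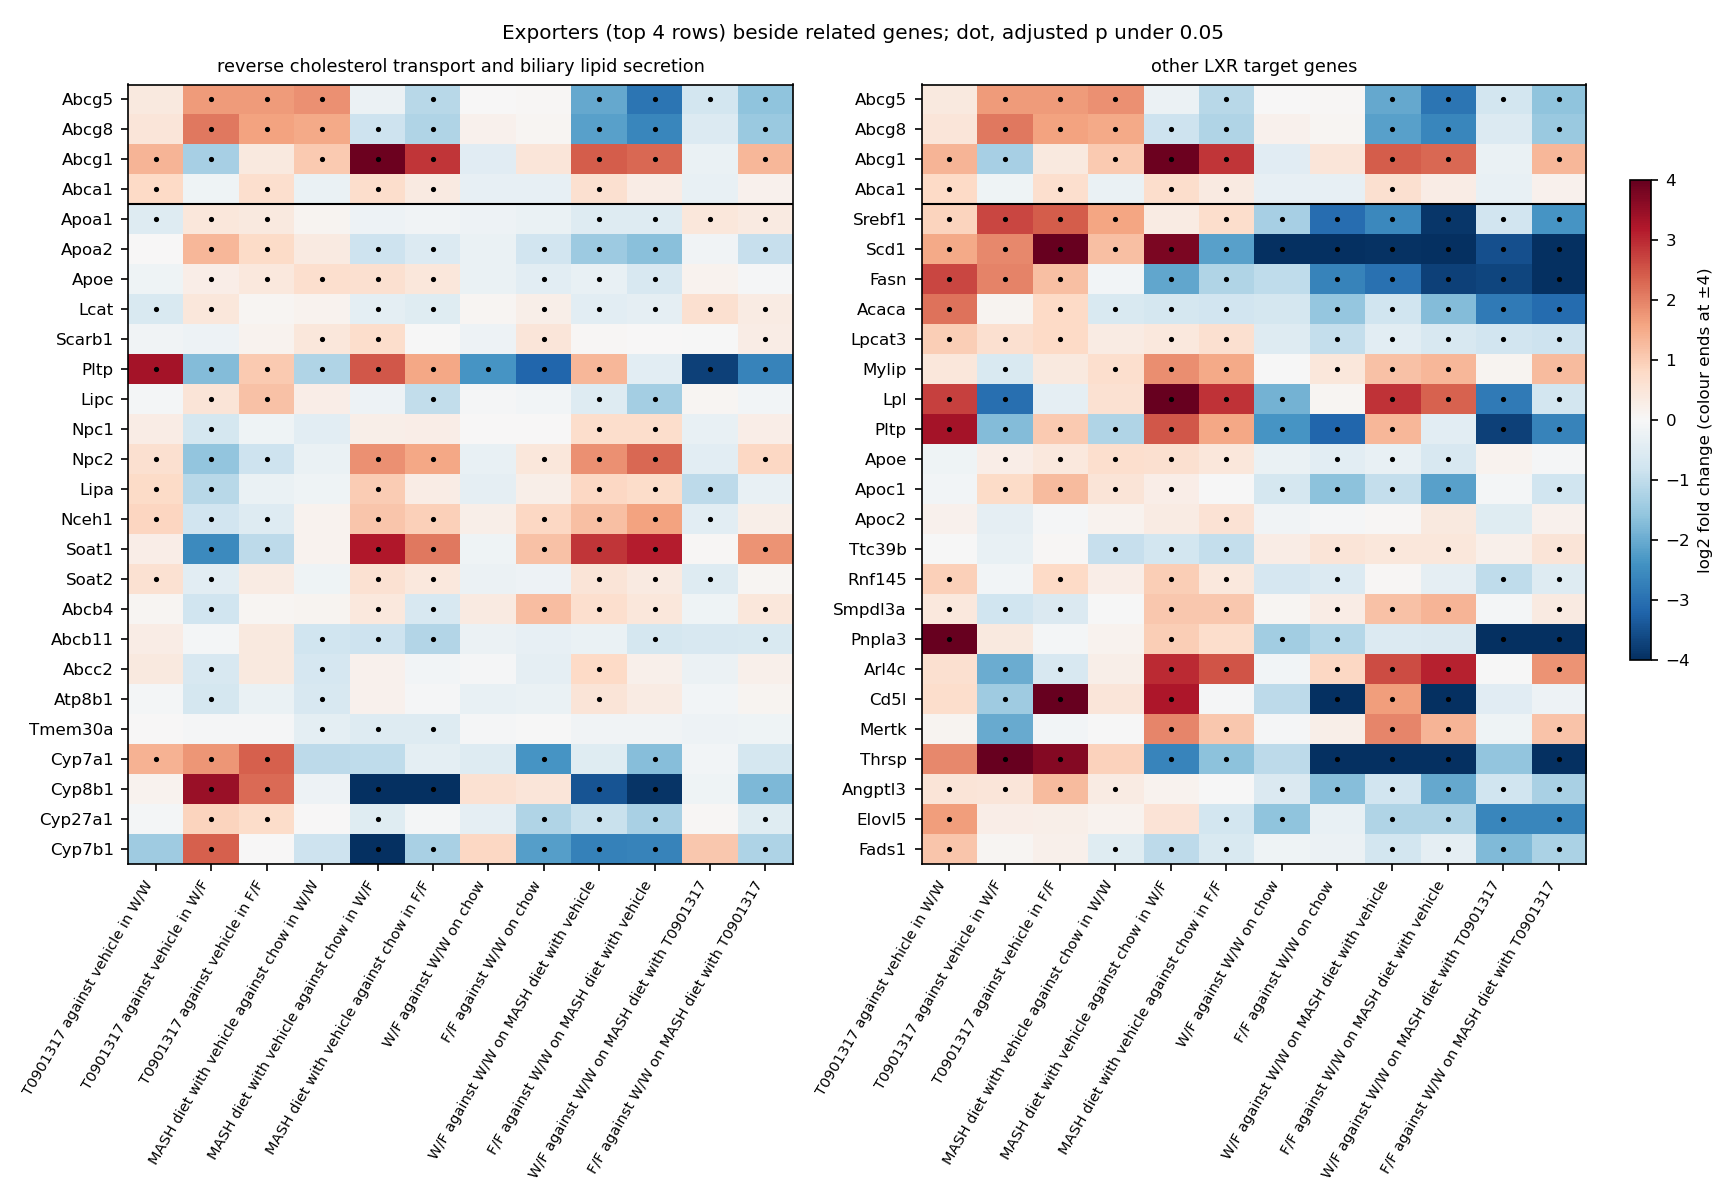
Log2 fold change (colour, ends at ±4) of the 4 exporters (top rows) and of genes of reverse cholesterol transport (left) or other LXR targets (right) in 12 comparisons, with dots for an adjusted p under 0.05. Abcg5 and Abcg8 share the blue of Srebf1 and Scd1, and Abcg1 the red of Soat1, Lpl and Arl4c, for both mutant genotypes relative to W/W on vehicle. Both lists held genes called in either direction there, and 61.6% (W/F) and 69.3% (F/F) of all genes were called higher.

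Of 18 other transporters of the ABCA and ABCG families 10 passed the filter. In F/F against W/W on vehicle 6 were called higher and 2 lower, with a median of 0.94 beside 0.70 for all genes, of which 69.3% were called higher, and after rescaling 4 and 4. Abcg3 was the highest (2.14, adjusted p = 6.98e-09), and Abcg2, an exporter of drugs and urate in the canalicular membrane, the lowest (-0.70, adjusted p = 3.82e-06). T0901317 in W/W, where 10.8% of genes were called, gave 1 higher, Abca3 (0.61, adjusted p = 0.0146), and 1 lower, Abca8a (-0.88, adjusted p = 0.0230).

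Of 12 regulators of exporter transcription, 7 were called higher and 1 lower in F/F than in W/W on vehicle as deposited, where 69.3% of all genes were called higher, and 1 higher and 6 lower after rescaling. The receptor transcripts were among those that depended on the scaling. Nr1h3 had group means of 86.8 to 108 TPM and Nr1h2, the paralogue LXRbeta, of 23.1 to 47.2 TPM. Neither level reports on the activity of the mutant protein. Nr1h3 in F/F relative to W/W on vehicle was 0.06 as deposited (adjusted p = 0.594) and -0.80 after rescaling, which passed, while Nr1h2 was 1.0 as deposited (adjusted p = 5.02e-10) and 0.16 after rescaling, which did not pass. Gata4, which encodes a GATA factor, was lower than in W/W on vehicle, in W/F (-0.71, adjusted p = 0.000254 by limma) as in F/F (-0.69, adjusted p = 0.000235). Gata6, of the same family, was higher there (1.49 and 2.07, adjusted p = 4.66e-10 and 2.23e-13). Both kept their direction after rescaling. Whether these factors have a part in the exporter levels was not tested. Hnf4a, a regulator of many hepatocyte genes, did not pass there as deposited (0.13 and -0.06, adjusted p = 0.420 and 0.731) and was lower after rescaling (-0.53 and -0.92).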

How the data were processed

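Transcript levels of 4 exporters were compared across 9 groups of 4 mouse livers, grouped by the labels. The authors deposited 1 table of TPM, per the file headers. The submitters' processing notes name Trimmomatic 0.36, STAR 2.5.2b, featureCounts, Subread 1.5.2 and GRCm38 (mm10), with no roles or order. Whether counting used strand is not given in the sources used here. TPM correct for length and total, not for composition. Genes with 1 TPM or more in 4 or more libraries, 16638 in all, were put on the log2(TPM + 1) scale. One mean per group was estimated in limma 3.58.1 (R 4.3.3, trended variances, two-sided) with 19 contrasts, 4 of them differences of responses, and Benjamini-Hochberg adjustment over all tested genes. The code was first tested on simulated data. Ratios within a library were compared by exact permutation over 70 arrangements, adjusted over 15 comparisons. Sequences came from RefSeq and loci from GENCODE M21. Depth was inferred from low TPM, 93.6% to 95.6% of which came within 0.1 of whole reads. Alternatives were another pseudocount, other filters, rescaling, array weights, a replicate block, a fit of the compared groups alone and the omission of each library. Named list genes were the called genes with the largest rise and fall and up to 3 others in list order. Lpl in F/F relative to W/W, Cyp7a1 and Pltp beside others, and Hnf4a were named after their values were seen. The members and lists were chosen with earlier results of these data known. Some of the genes most correlated with a member are not reported here.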

Additional observations from a re-analysis of the deposited data

Results flagged for a closer look

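Of 63 groups of 4 values examined for a value far from the other 3, 4 were marked, where chance marks about 1 in 20. Abcg1 in W/F on T0901317 was 31.8 TPM in replicate 2 and 9.27 to 12.8 TPM in the others. Abcg8 in W/F on vehicle was 55.7 TPM in replicate 2 and 34.5 to 38.1 TPM in the others. The ratio of summed Abcg5 and Abcg8 to Abcg1 in W/F on vehicle was 2.17 in replicate 3 and 3.03 to 3.21 in the others. The ratio of Abca1 to Abcg1 in W/F on chow was 23.5 in replicate 1 and 16.4 to 17.0 in the others.

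Responses that differed between genotypes by the test of the difference (limma, adjusted p under 0.05) are given as log2 values. The T0901317 response in W/F minus that in W/W was -0.95 for Abca1, -2.67 for Abcg1, 1.30 for Abcg5 and 1.63 for Abcg8. In F/F minus W/W it was -0.97 for Abcg1, 1.32 for Abcg5 and 1.13 for Abcg8. The diet response in W/F minus W/W was 0.97 for Abca1, 2.86 for Abcg1, -2.08 for Abcg5 and -2.34 for Abcg8. In F/F minus W/W it was 0.64 for Abca1, 1.80 for Abcg1, -2.96 for Abcg5 and -2.70 for Abcg8.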

How the results depend on the processing

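Under each setting 76 values were recomputed, 4 exporters in 19 contrasts. With a pseudocount of 0.1, 75 kept their direction and side of the threshold, with a filter of 5 TPM all 76, with no filter 72, with array weights 73, and with the compared groups alone 74. Rescaling kept 56, and 10 reversed. The reversed values were, for Abca1, 0.42 for T0901317 in W/F, -0.0039, -0.54 and -0.33 for W/F on vehicle, F/F on vehicle and F/F on T0901317 relative to W/W, -0.032 for F/F relative to W/F on T0901317, and 0.21 for the T0901317 response of F/F minus W/W. On chow they were -0.0038 (W/F to W/W), -0.34 (F/F to W/W) and -0.34 (F/F to W/F) for Abcg5, and -0.30 (F/F to W/W) for Abcg8. Rescaling also ended calls of Abca1 on the diet in W/F (0.20) and F/F (0.023), of its T0901317 response in W/F (-0.30), of its diet responses in W/F (0.35) and F/F (0.17), and of the T0901317 response of Abcg1 in F/F (-0.68). It brought calls for Abca1 in F/F on chow (-0.72) and relative to W/F on vehicle (-0.54), Abcg1 on T0901317 in F/F (0.64) and Abcg5 on the diet in W/F (-0.74). The cause was not tested.

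Without a filter calls ended for Abca1 on the diet in F/F (0.37), Abcg1 and Abcg8 in the T0901317 response of F/F (-0.97 and 1.13) and Abcg5 in W/F on T0901317 (-0.75), where more genes were adjusted over. In the fit of compared groups alone Abca1 lost the diet call in F/F (0.37) and gained one in F/F on vehicle (0.30). Array weights brought calls for Abca1 in F/F on chow (-0.40) and relative to W/F on vehicle (-0.44) and for Abcg1 in F/F on chow (0.66), as a pseudocount of 0.1 did for the last (0.63). The ratio of the pair to Abcg1 on the diet in W/W passed with 1 added (0.65) or Abcg5 alone (0.52), and that of F/F to W/F on vehicle did not with Abcg8 alone (-0.33).

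Replicate numbers did not pair the samples: deviations of same-numbered samples correlated at -0.17 to 0.30, and 0 of 15 comparisons had every pair above 0.1. With a replicate block 75 of 76 values kept their call, and Abca1 in F/F on chow gained one (-0.34, adjusted p = 0.047).

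Leaving out 1 library at a time gave ranges, from lowest to highest. For Abca1 they were 0.25 to 0.50 on the diet in F/F, -0.48 to -0.22 for F/F to W/W on chow, 0.24 to 0.38 for F/F to W/W on vehicle, -0.15 to 0.10 for F/F to W/F on chow and -0.46 to -0.24 for F/F to W/F on vehicle. For Abcg1 they were -0.61 to -0.052 for W/F to W/W on T0901317, 0.39 to 0.62 for F/F to W/W on chow and -1.12 to -0.87 for the T0901317 response in F/F. For Abcg5 they were -0.15 to 0.22, -0.14 to 0.38 and -0.18 to 0.35 on chow (W/F to W/W, F/F to W/W and F/F to W/F) and -0.84 to -0.65 for W/F to W/W on T0901317. For Abcg8 they were -1.09 to -0.64 on the diet in W/F, -0.022 to 0.42, -0.12 to 0.43 and -0.34 to 0.26 on chow in the same order, and 0.99 to 1.27 for the T0901317 response in F/F.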
